A study of Mus musculus with 4 samples.

Results

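The 10 genes described here encode the D-type cyclins (Ccnd1, Ccnd2 and Ccnd3), the kinases they activate (Cdk4 and Cdk6) and the inhibitors of those kinases, from the INK4 family (Cdkn2a, Cdkn2b and Cdkn2c) and the CIP/KIP family (Cdkn1a and Cdkn1b). They were chosen by gene symbol for their function, with earlier results of these data known. All 10 were found among the 24497 gene rows of the expression table. RNA sequencing had been done on cultured mouse acute myeloid leukaemia cells carrying NRAS and AE9a, a truncated AML1-ETO fusion. The cells had been raised from bone marrow haematopoietic stem cells of Tet2-/- mice, whose Tet2 gene lacks exon 3 (2 libraries, Tet2 KO), or of wild-type mice (2 libraries, WT). Tet2 encodes an enzyme that oxidises 5-methylcytosine in DNA. Both groups carried the same oncogenes, with no treatment named. The RPMI medium of both held 2 µg/ml of puromycin, 1 mg/ml of G418, and as cytokines 50 ng/ml of SCF (stem cell factor) with 10 ng/ml each of interleukins IL-6 and IL-3. Nothing in the labels tells whether a group's libraries are separate cultures, clones or animals, so each p-value reflects how these 4 libraries scatter, and that scatter may be technical.

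D-type cyclins link growth factor signals to the cell cycle. Bound to CDK4 or CDK6, they phosphorylate the retinoblastoma protein RB, which then releases E2F transcription factors and lets cells pass from G1 into S phase. INK4 proteins bind CDK4 and CDK6 and keep the cyclin off. CIP/KIP proteins inhibit cyclin E and cyclin A complexes with CDK2, and also help cyclin D and CDK4 to assemble. Normal and leukaemic blood cells rely largely on cyclin D2, cyclin D3 and CDK6, and loss or silencing of the Cdkn2a and Cdkn2b locus is common in blood cancers. The abundance of cyclin D and p27 proteins is also set by their degradation, which RNA levels do not show.

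Values were deposited as TPM (a transcript's share of all RNA, corrected for its length). The number of reads behind each library cannot be recovered from such values and is unknown. Tet2 itself stood at 16.98 and 16.95 TPM in the Tet2 KO libraries, against 16.62 and 16.98 TPM in the WT libraries (limma adjusted p = 0.868). When libraries were scaled by the median ratio of all genes, its log2 change was -0.23 (limma adjusted p = 0.00831, over 16 alternatives 0.00278 to 0.992). A gene-level value holds the reads of all exons, so it does not check the deletion of 1 of them. The median absolute log2 difference between libraries of a group was 0.0716 for Tet2 KO and 0.0504 for WT, over 7943 genes averaging at least 10 TPM. All 6 haematopoietic markers were present, with a summed level of 1039 to 1052 TPM in Tet2 KO and 1131 to 1144 TPM in WT. They moved in opposite directions: 4 were called higher and 2 lower, or 2 and 2 after median-ratio scaling. Of all genes tested, 54.4% were called higher and 19.5% lower, or 32.7% and 34.8% after that scaling. Itgam, a gene of maturing myeloid cells, averaged 224.1 TPM in Tet2 KO and 382.8 TPM in WT. Spi1, which encodes the myeloid factor PU.1, averaged 224.1 TPM in Tet2 KO and 300.4 TPM in WT. Mpo, a granule enzyme gene of early myeloid cells, averaged 156.6 TPM in Tet2 KO and 91.8 TPM in WT, and Cebpa 55.1 TPM in Tet2 KO and 40.1 TPM in WT. These 4 were called in the same directions after median-ratio scaling. Every marker on the fibroblast (4), B cell (4), T cell (5), erythroid (3) and epithelial (3) lists lay below 1 TPM in all libraries, as did the endothelial genes Cdh5 and Kdr. Pecam1, which myeloid cells also express, did not: the endothelial sum was 169.2 to 176.2 TPM in Tet2 KO and 261.5 to 263.8 TPM in WT. The part of these markers in the results was not tested.

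The sequences bear on how the values can be read. Cdkn2a has 2 start sites that give unrelated proteins: the inhibitor p16Ink4a, and p19Arf, which stabilises p53 by binding MDM2. The annotated transcripts begin 12461 bases apart on chromosome 4. They share 575 exonic bases, 67.5% of the shorter transcript (852 bases) and 64.2% of the longer one (895 bases), and the deposited value adds both. Cdkn2b, which encodes p15Ink4b, lies next to them, with 11645 bases between the genes. The upstream windows of these 3 starts are shown because Cdkn2a and Cdkn2b moved together and because TET2 acts on cytosines in CG pairs. Each is the 250 bases before a RefSeq start on GRCm38.p6, on the strand of the gene, with CG pairs in capitals.
Cdkn2a, p16Ink4a start, chr4:89282193-89282442, minus strand: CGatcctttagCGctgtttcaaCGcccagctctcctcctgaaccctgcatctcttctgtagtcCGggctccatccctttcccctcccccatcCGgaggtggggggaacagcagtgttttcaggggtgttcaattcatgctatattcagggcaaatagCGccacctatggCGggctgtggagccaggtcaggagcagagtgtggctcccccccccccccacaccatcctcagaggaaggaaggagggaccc
Cdkn2a, p19Arf start, chr4:89294620-89294869, minus strand: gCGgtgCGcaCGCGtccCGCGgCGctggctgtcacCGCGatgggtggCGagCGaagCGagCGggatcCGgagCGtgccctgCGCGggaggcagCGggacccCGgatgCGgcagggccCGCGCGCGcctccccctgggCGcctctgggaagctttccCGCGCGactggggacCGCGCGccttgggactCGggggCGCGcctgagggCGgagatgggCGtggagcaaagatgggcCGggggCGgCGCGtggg
Cdkn2b, chr4:89311033-89311282, minus strand: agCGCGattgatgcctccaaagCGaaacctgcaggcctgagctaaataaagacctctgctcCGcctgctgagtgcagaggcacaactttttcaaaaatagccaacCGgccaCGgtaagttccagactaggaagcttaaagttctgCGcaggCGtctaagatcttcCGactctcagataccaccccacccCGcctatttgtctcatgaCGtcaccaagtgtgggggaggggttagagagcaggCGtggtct
The p19Arf window held 40 CG pairs, more than 98.7% of 32817 windows of this length. The p16Ink4a window held 7 and the Cdkn2b window 12, where the median window held 6. No methylation was measured in these libraries, so the letters describe the sites and nothing that happened there.

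The window of Cdkn1b, the member with the largest rise, held 28 CG pairs, more than 92.4% of windows. This count lay between those of the p19Arf window (40) and the Cdkn2b window (12). The Cdkn1b window is shown in the same way.
Cdkn1b, chr6:134920151-134920400, plus strand: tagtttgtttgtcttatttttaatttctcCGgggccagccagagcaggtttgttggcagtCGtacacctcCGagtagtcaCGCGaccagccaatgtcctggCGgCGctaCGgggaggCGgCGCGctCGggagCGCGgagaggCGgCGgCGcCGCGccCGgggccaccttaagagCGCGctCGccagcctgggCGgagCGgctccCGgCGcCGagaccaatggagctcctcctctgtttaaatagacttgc
For Cdk4 the window is shown for CACGTG, the E-box letters that MYC and related factors bind, in capitals. It held 4 of them, and the only other member window with a match was that of Cdk6, with 1. Of all windows, 6.02% held at least 1 and 0.0213% held 4 or more.
Cdk4, chr10:127063285-127063534, plus strand: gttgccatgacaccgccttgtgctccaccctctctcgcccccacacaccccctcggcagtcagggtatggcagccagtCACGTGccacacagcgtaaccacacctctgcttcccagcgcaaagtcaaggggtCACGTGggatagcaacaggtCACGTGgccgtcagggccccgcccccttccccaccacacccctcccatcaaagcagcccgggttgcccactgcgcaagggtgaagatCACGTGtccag
The upstream start of Cdkn1a is shown for a pattern in capitals, ACATGT followed by any 4 bases and ACATGT again, which fits the core letters of a p53 response element. This pattern was chosen after the window had been read. It begins 49 bases before the start, and 4 of the 32817 windows (0.0122%) held it.
Cdkn1a, upstream start, chr17:29090729-29090978, plus strand: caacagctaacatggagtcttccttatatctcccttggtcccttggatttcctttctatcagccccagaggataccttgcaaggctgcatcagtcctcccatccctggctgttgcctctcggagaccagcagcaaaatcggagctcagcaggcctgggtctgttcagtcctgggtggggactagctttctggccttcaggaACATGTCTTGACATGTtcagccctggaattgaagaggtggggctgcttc
All the patterns were read on both strands, as plain letters, and a match is not a bound site. The GC box letters GGGCGG were in 32.7% of all windows and the letters CCAAT of another common promoter element in 33.8%. Cdkn1b held 1 of the first kind and 2 of the second. The E2F letters TTTNGCGC occurred in 1.13% of all windows and, among the 12 member windows at hand, once, at the p16Ink4a start. The CREB letters TGACGT, in 6.46% of windows, occurred 2 times before Cdkn2b, where the matches overlap on the 2 strands of 1 stretch, and once in a window of Ccnd3. The forkhead letters TGTTTAC (3.16% of windows) were in 1 window of Ccnd3, and the STAT letters TTCNNNGAA (7.01%) in none of the 12. RefSeq windows were at hand for 8 of the 10 genes, 12 windows in all. None was at hand for Ccnd1 and Ccnd2, so no pattern was looked for there.

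Every member passed the filter of 1 TPM in at least 2 libraries. On the deposited scale 5 of the 10 were lower in Tet2 KO, 4 were higher and 1 was not called (threshold, limma adjusted p under 0.05). Of all 11452 genes tested, 73.9% were called, 54.4% as higher and 19.5% as lower. The median log2 fold change was -0.27 over the members, against 0.23 over all genes tested. Because the median of all genes lay above 0, the changes of the members are also given relative to the median of all genes, after rescaling the libraries by their median ratio. On that scale 6 members were lower, 2 were higher and 2 were not called, beside 34.8% of all genes called lower and 32.7% called higher. In each of the 10 genes the Tet2 KO libraries lay wholly on one side of the WT libraries, above in 4 genes and below in 6. The same was true of 86.8% of all genes tested, 62.4% above and 24.4% below.

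**Figure D1:**
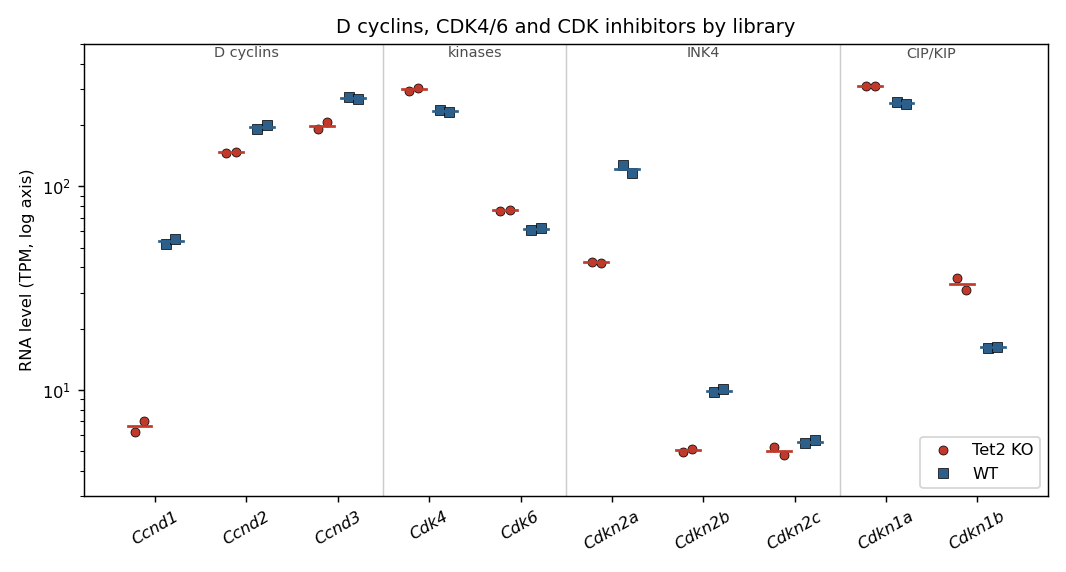
RNA level in TPM (log axis) of each gene in each library, with Tet2 KO libraries as circles left of the WT libraries as squares and a bar at each mean of 2 libraries. The widest gap is at Ccnd1, with Tet2 KO libraries at 6.22 and 6.99 TPM and WT libraries at 52.3 and 54.95 TPM, and no gene has overlapping groups.

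All 3 D cyclins fell in Tet2 KO cells, and Ccnd1 fell far more than the others. Ccnd1, the cyclin most often tied to mitogen signals in solid tissues (chromosome 7, 144929931 to 144939925, mm10), had 6.22 and 6.99 TPM in Tet2 KO, compared with 52.3 and 54.95 TPM in WT. Both Tet2 KO libraries were low and close together, and the groups were far apart. Its mean was 8.12-fold higher in WT, and the log2 change, Tet2 KO over WT as throughout, was -2.85 (SE 0.0716, limma adjusted p = 7.11e-15). By log2 fold change this was rank 14 among the falls of all 11452 genes tested. After rescaling, Ccnd1 fell by 3.08 on the log2 scale (limma adjusted p = 1.53e-08). Its exons share 1100 of 4709 bases (23.4%) with a gene on the opposite strand, LTO1, listed under its older symbol Oraov1. Oraov1 had 7.59 and 9.04 TPM in Tet2 KO and 8.22 and 8.68 TPM in WT. The strand setting of the quantification is not given in the sources used here, so reads of the pair cannot be told apart. In bulk RNA, fewer cells expressing a gene and less RNA per cell cannot be told apart either.

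Ccnd2, the cyclin D2 gene (chromosome 6, 127125162 to 127152193), is a target of cytokine signals in blood cells. It had 145.6 and 147.4 TPM in Tet2 KO, compared with 190.5 and 200.5 TPM in WT. The Tet2 KO libraries nearly coincided below both WT libraries. Its log2 change was -0.41 (SE 0.0443, limma adjusted p = 3.7e-07), and after rescaling it was -0.66 (limma adjusted p = 2.28e-06). Ccnd3, the cyclin D3 gene (chromosome 17, 47505051 to 47599691), had 190.3 and 206.7 TPM in Tet2 KO, compared with 273.4 and 267.5 TPM in WT. The Tet2 KO libraries were the more spread, and both stayed below WT. The log2 change was -0.45 (SE 0.0454, limma adjusted p = 2.02e-07), and after rescaling it was -0.70 (limma adjusted p = 3.22e-06). The falls of Ccnd2 and Ccnd3 were of nearly one size, and their 95% intervals on the deposited scale, -0.507 to -0.319 and -0.542 to -0.349, overlapped for most of their length. That of Ccnd1, -3 to -2.69, lay well below both.

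A share within a library does not change when the library is multiplied by a factor, so the make-up of the D cyclin RNA pool was compared directly. The summed level of the 3 genes, which does change with such a factor, was 342.1 and 361.1 TPM in Tet2 KO, compared with 516.1 and 522.9 TPM in WT. Ccnd1 made up 1.82 and 1.94% of it in Tet2 KO, compared with 10.1 and 10.5% in WT. Ccnd2 took 42.6 and 40.8% in Tet2 KO and 36.9 and 38.3% in WT. Ccnd3 took 55.6 and 57.25% in Tet2 KO and 52.96 and 51.2% in WT. Ccnd3 was the most abundant D cyclin in every library, and for all 3 shares the groups did not overlap. The 3 shares make up 1 whole, so a lower share of Ccnd1 by itself raises those of Ccnd2 and Ccnd3. In mean TPM, Ccnd2 and Ccnd3 stood at 0.75 and 0.73 of their WT levels in Tet2 KO. Their higher shares are therefore not a gain of their RNA. With 2 libraries against 2, an exact two-sided permutation test cannot give a p below 0.333, and these shares each gave p = 0.333.

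Both kinases rose by a small amount on the deposited scale, and the size of that rise was close to the shift of all genes. Cdk4, the kinase gene used by most cell types (chromosome 10, 127063534 to 127067920), had 294.7 and 305.4 TPM in Tet2 KO, compared with 237.9 and 231.7 TPM in WT. Both Tet2 KO libraries were above both WT libraries. Its log2 change was 0.35 (SE 0.0404, limma adjusted p = 8.19e-07). After rescaling, the value was 0.10 (limma adjusted p = 0.046, range over 16 alternatives 3.47e-08 to 0.323). The exons of Cdk4 share 641 of 3249 bases (19.7%) with Tspan31, a tetraspanin gene on the opposite strand. Tspan31 had 120.9 and 130.2 TPM in Tet2 KO and 161.4 and 159.1 TPM in WT, a difference in the other direction.

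Cdk6, the kinase gene prominent in blood cells (chromosome 5, 3341485 to 3531008), had 75.5 and 76.9 TPM in Tet2 KO, compared with 60.9 and 62.5 TPM in WT. The libraries of each group differed by less than the gap between groups. The log2 change was 0.30 (SE 0.0514, limma adjusted p = 6.61e-05). After rescaling, it was 0.050, with a 95% interval of -0.0448 to 0.145, and missed the threshold (limma adjusted p = 0.308, range over 16 alternatives 1.86e-05 to 0.926). The balance between the kinases was nearly constant: Cdk6 made up 20.4 and 20.1% of the RNA of both in Tet2 KO, compared with 20.4 and 21.25% in WT. This is the only share of those compared whose groups overlapped (exact permutation p = 0.667).

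**Figure D2:**
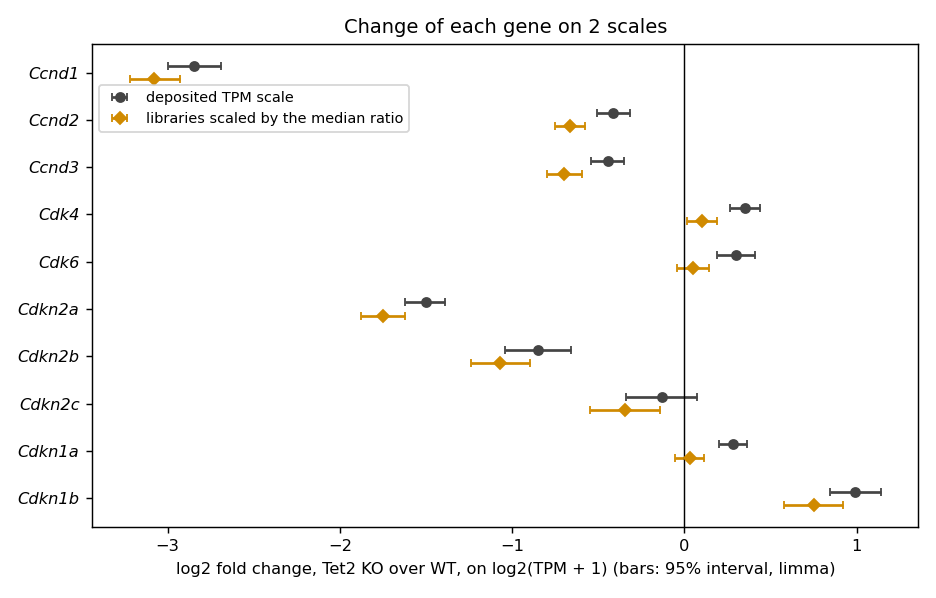
Log2 fold change of each gene, Tet2 KO over WT, on log2(TPM + 1), with 95% intervals from limma, on the deposited TPM scale (circles) and after rescaling by the median ratio (diamonds). Rescaling moves every gene to the left, so that Cdk6 and Cdkn1a reach intervals that include 0 and the interval of Cdkn2c leaves 0.

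Of the INK4 genes, Cdkn2a and Cdkn2b fell and Cdkn2c passed the test after rescaling but not on the deposited scale. Cdkn2a (chromosome 4, 89274471 to 89294653) had 42.5 and 42.1 TPM in Tet2 KO, compared with 126.6 and 116.8 TPM in WT. The Tet2 KO libraries were almost equal, and both WT libraries were far above them. The mean was 2.88-fold higher in WT, and the log2 change was -1.50 (SE 0.0543, limma adjusted p = 5.68e-13), rank 135 among the falls. After rescaling, the value was -1.75 (limma adjusted p = 1.03e-07). Which of p16Ink4a and p19Arf the RNA encoded cannot be read from the gene-level value.

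Cdkn2b (chromosome 4, 89306299 to 89311039) encodes p15Ink4b, an inhibitor known for its induction by TGF-beta. It had 4.97 and 5.14 TPM in Tet2 KO, compared with 9.74 and 10.09 TPM in WT. Its level in Tet2 KO was close to 0.51 of that in WT, at a far lower level than Cdkn2a. The log2 change was -0.85 (SE 0.0891, limma adjusted p = 2.79e-07), and after rescaling it was -1.07 (limma adjusted p = 6.26e-06). Cdkn2c, the p18Ink4c gene (chromosome 4, 109660876 to 109667189), had 5.23 and 4.76 TPM in Tet2 KO, compared with 5.5 and 5.64 TPM in WT. Its highest Tet2 KO library came close to its lowest WT library. The log2 change was -0.13 with a 95% interval of -0.341 to 0.0743 (limma adjusted p = 0.228). After rescaling, the value was -0.35 (limma adjusted p = 0.00872, range over 16 alternatives 0.00137 to 0.518). It also passed with quantile normalization (limma adjusted p = 0.00305) and with spike-in scaling (limma adjusted p = 0.00137).

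The 3 INK4 genes together stood at 52.7 and 51.99 TPM in Tet2 KO, compared with 141.8 and 132.6 TPM in WT. Cdkn2a was most of this in every library, 80.7 and 80.96% in Tet2 KO and 89.3 and 88.1% in WT. The share of Cdkn2c was 9.92 and 9.16% in Tet2 KO, compared with 3.88 and 4.255% in WT. RNA of the 3 INK4 genes amounted to 0.1425 and 0.136 of the summed Cdk4 and Cdk6 level in Tet2 KO, and to 0.475 and 0.451 of it in WT. The groups did not overlap in any of these (exact permutation p = 0.333 for each). The higher share of Cdkn2c in Tet2 KO is not a gain of its RNA. Cdkn2c averaged 4.995 TPM in Tet2 KO and 5.57 TPM in WT, while Cdkn2a in the same sum fell. The Cdkn2a part of these sums may include p19Arf RNA, which does not encode an INK4 protein. The ratio to the kinases may therefore not be one of INK4 inhibitor RNA alone.

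Of 5 neighbours of Cdkn2a on chromosome 4, 2 passed the filter. Of these 1 was called lower, and both were after rescaling. Mtap, which encodes an enzyme of methionine salvage and is often lost with CDKN2A in human tumours, had 38.6 and 34.8 TPM in Tet2 KO, compared with 45.8 and 45.4 TPM in WT. Both Tet2 KO libraries were below WT, with a difference of -0.31 on the log2 scale (limma adjusted p = 2.8e-04), and of -0.55 after rescaling (limma adjusted p = 1.05e-04). Klhl9 had 41.3 and 40.1 TPM in Tet2 KO and 36.6 and 40.4 TPM in WT, and was lower after rescaling but not called as deposited (log2 -0.17, limma adjusted p = 0.0297, range over 16 alternatives 0.00576 to 0.92). Dmrta1, Elavl2 and Ifne stayed below 1 TPM in all libraries. Of the fourth INK4 gene, Cdkn2d, the p19Ink4d gene on chromosome 9, 43.6 and 43.9 TPM were found in Tet2 KO and 46.2 and 44.4 TPM in WT. It did not pass on the deposited scale (log2 fold change -0.048, limma adjusted p = 0.442) but was lower after rescaling (-0.30, limma adjusted p = 8.17e-04, range over 16 alternatives 8.72e-06 to 0.845).

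Of the CIP/KIP genes, Cdkn1b was 2.05-fold higher in mean TPM, and Cdkn1a rose by about as much as the median gene. Cdkn1b (chromosome 6, 134920401 to 134925513) encodes p27Kip1, which accumulates in resting cells. It had 35.2 and 31.1 TPM in Tet2 KO, compared with 16 and 16.3 TPM in WT. The WT libraries nearly coincided, and both Tet2 KO libraries were far above them. The log2 change was 0.99 (SE 0.0699, limma adjusted p = 2.35e-09), rank 722 among the rises. After rescaling, the value was 0.75 (limma adjusted p = 4.08e-05).

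Cdkn1a (chromosome 17, 29090976 to 29100727) encodes p21Cip1, a classical target of p53. It had 311.1 and 312.5 TPM in Tet2 KO, compared with 258.4 and 254.4 TPM in WT, and was the most abundant inhibitor in every library. The libraries of each group were close together and the groups were apart. The log2 change was 0.28 (SE 0.0386, limma adjusted p = 6.17e-06). After rescaling, it was 0.030, with a 95% interval of -0.0565 to 0.116 (limma adjusted p = 0.506, range over 16 alternatives 7.44e-07 to 0.825). With spike-in scaling it was -0.014 (limma adjusted p = 0.825). Another gene of the family, Cdkn1c, which encodes p57Kip2, was near the filter, at 1.53 and 1.89 TPM in Tet2 KO and 0.84 and 1.03 TPM in WT (log2 fold change 0.48, limma adjusted p = 0.0034, and 0.108 after quantile normalization).

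Cdkn1b made up 10.2 and 9.05% of the summed Cdkn1a and Cdkn1b level in Tet2 KO, compared with 5.83 and 6.02% in WT. The sum itself was 346.4 and 343.6 TPM in Tet2 KO, compared with 274.4 and 270.7 TPM in WT. The 5 inhibitor genes together stood at 1.17 and 1.095 times the summed D cyclin level in Tet2 KO, and at 0.806 and 0.771 times it in WT. None of these overlapped between groups (exact permutation p = 0.333 for each). RNA of the 5 inhibitor genes thus exceeded D cyclin RNA in both Tet2 KO libraries and not in the WT libraries. The D cyclin sum averaged 351.6 TPM in Tet2 KO and 519.5 TPM in WT. The INK4 sum averaged 52.4 TPM in Tet2 KO and 137.2 TPM in WT, and the CIP/KIP sum 345 and 272.5 TPM. The higher ratio in Tet2 KO therefore does not show more inhibitor RNA. The Cdkn2a value in it may also include p19Arf RNA.

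**Figure D3:**
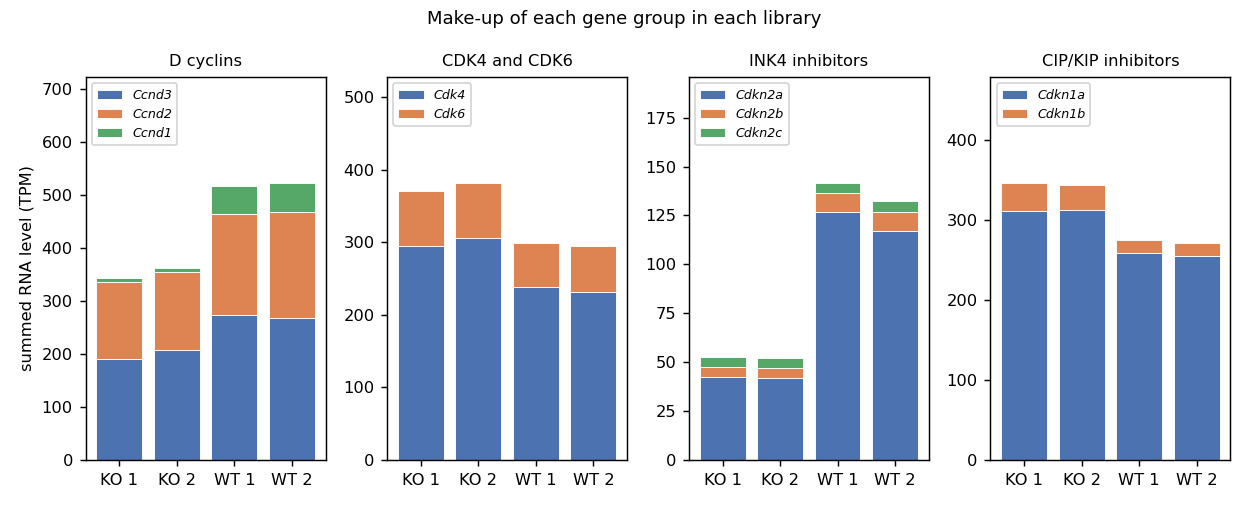
Summed TPM of each gene group in the 2 Tet2 KO libraries and the 2 WT libraries, each bar split by gene, with a separate axis for each group that starts at 0. D cyclins and INK4 inhibitors are lower in Tet2 KO, the kinases and CIP/KIP inhibitors higher, and the segment of Ccnd1 shrinks to 1.82 and 1.94% of its bar in Tet2 KO.

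By mean level, the order of the 10 genes in Tet2 KO was Cdkn1a (311.8 TPM), Cdk4 (300.1), Ccnd3 (198.5), Ccnd2 (146.5), Cdk6 (76.2), Cdkn2a (42.3), Cdkn1b (33.2), Ccnd1 (6.61), Cdkn2b (5.06) and Cdkn2c (4.995). In WT it was Ccnd3 (270.4 TPM), Cdkn1a (256.4), Cdk4 (234.8), Ccnd2 (195.5), Cdkn2a (121.7), Cdk6 (61.7), Ccnd1 (53.6), Cdkn1b (16.2), Cdkn2b (9.92) and Cdkn2c (5.57). Ccnd3 led in WT and came behind Cdkn1a and Cdk4 in Tet2 KO, and Cdkn2a and Cdk6 changed places, as did Ccnd1 and Cdkn1b. In Tet2 KO the libraries of Cdkn2b and Cdkn2c overlapped, so these neighbours were not apart beyond their spread.

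The direction of the largest changes did not hang on the scale of the libraries. Ccnd1, Ccnd2, Ccnd3, Cdkn2a and Cdkn2b were lower and Cdkn1b was higher, past the threshold, under each of the 16 alternatives. Cdk4, Cdk6 and Cdkn1a passed on the deposited scale and after quantile normalization, and did not pass with spike-in scaling. The spike-ins took 5.48 and 5.33% of the total in Tet2 KO, compared with 4.38 and 4.43% in WT.

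**Figure D4:**
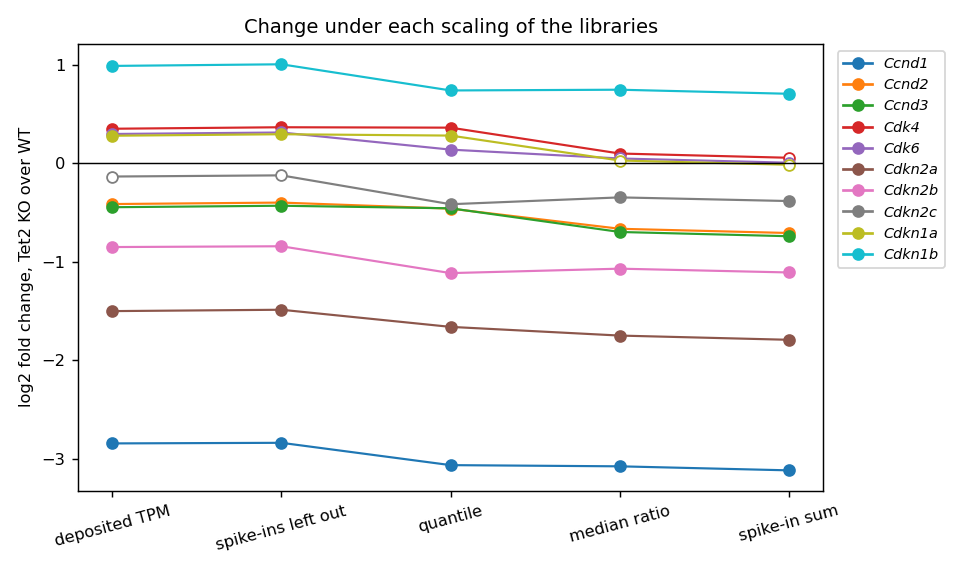
Log2 fold change of each gene, Tet2 KO over WT, under 5 scalings of the libraries, with filled circles for a limma adjusted p under 0.05 and open circles otherwise. Lines join the values of a gene and stand for no order of the scalings. Cdk4, Cdk6 and Cdkn1a come to lie near 0 at the right, whereas Ccnd1 reaches -3.12.

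The rest of the pathway was read from lists chosen by function, with earlier results of these data known. They hold 131 genes beside the members, 123 of them tested. On the deposited scale 61 were higher and 28 lower in Tet2 KO, with a median log2 fold change of 0.15 against 0.23 over all genes. Of all genes tested, 54.4% were called higher and 19.5% lower on that scale. After rescaling, 40 of the listed genes were higher and 57 lower, beside 32.7% and 34.8% of all genes tested. The counts of each list below are to be read beside these shares of all genes. The lists are described by these counts and were not tested as sets.

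Downstream of the kinases, 7 of 13 RB and E2F genes rose and 1 fell (2 without Tet2 KO replicate 1), with a median log2 fold change of 0.15. After rescaling, 4 rose and 4 fell. The RB family itself rose together. Rb1 had 46.5 and 41.99 TPM in Tet2 KO, compared with 23.1 and 25.7 TPM in WT (log2 fold change 0.84, limma adjusted p = 2.84e-08). Rbl1, which encodes p107, averaged 29.6 ± 1.55 TPM in Tet2 KO and 20.4 ± 0.651 TPM in WT (SD, n = 2 each). Rbl2, which encodes p130, averaged 41.3 ± 1.43 TPM in Tet2 KO and 27.3 ± 0.339 TPM in WT. All 3 were also higher after rescaling, by log2 fold changes of 0.59, 0.27 and 0.33, against 0.84, 0.51 and 0.58 as deposited (limma adjusted p = 1.57e-04, 0.00484 and 6.81e-04). Tfdp2, a dimer partner of E2F proteins, rose most, to 16.7 ± 0.0707 TPM in Tet2 KO, compared with 4.91 ± 0.177 TPM in WT (limma adjusted p = 5.93e-11).

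Of 8 tested genes of the cyclin E, cyclin A and CDK2 list, 4 rose and 2 fell (after rescaling, 2 and 3), with a median log2 fold change of 0.18. Ccne1, the cyclin E1 gene and an E2F target, had 17.5 and 18.7 TPM in Tet2 KO, compared with 27.8 and 28.4 TPM in WT (log2 fold change -0.61, limma adjusted p = 3.37e-07). Cdc25a, the phosphatase that activates CDK2, averaged 21.2 ± 0.255 TPM in Tet2 KO and 25.9 ± 0.481 TPM in WT (limma adjusted p = 8.84e-04). Cdk2 had 63.98 and 68.1 TPM in Tet2 KO, compared with 56.4 and 55.7 TPM in WT (log2 fold change 0.23, limma adjusted p = 0.00113), and after rescaling it was -0.017 (limma adjusted p = 0.757, range over 16 alternatives 5.82e-04 to 0.81). Mnat1 and Ccnh, which with Cdk7 encode the CDK-activating kinase, rose 1.65-fold and 1.43-fold in mean TPM (limma adjusted p = 2.53e-07 and 4.64e-06). Rescaling took the log2 changes of Mnat1 to 0.44 (0.68 as deposited), of Ccnh to 0.25 (0.50 as deposited) and of Cdc25a to -0.52 (-0.28 as deposited), all still called.

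Of 14 genes for the turnover of p27 and D cyclins, 7 rose and 2 fell (after rescaling, 4 and 6), and the median log2 fold change was 0.15. Usp22, a deubiquitinase gene, averaged 60.2 ± 1.87 TPM in Tet2 KO and 34.2 ± 0.622 TPM in WT (limma adjusted p = 2.35e-09). Gsk3b, the kinase that marks cyclin D1 for degradation, averaged 43.9 ± 0.615 TPM in Tet2 KO and 29.1 ± 1.25 TPM in WT (limma adjusted p = 2.08e-07). Rnf123, a ubiquitin ligase subunit gene for p27, averaged 28.5 ± 2.03 TPM in Tet2 KO and 20.7 ± 1.57 TPM in WT (limma adjusted p = 3.97e-05, but 0.0612 with spike-in scaling). Rbx1, the RING subunit of cullin ligases, fell to 48.03 ± 0.0707 TPM in Tet2 KO, compared with 65.5 ± 1.32 TPM in WT (limma adjusted p = 1.55e-06). Skp2, the p27 receptor of its ligase, had 6.66 and 6.03 TPM in Tet2 KO and 7.15 and 7.12 TPM in WT; it was not called as deposited (limma adjusted p = 0.156) and was lower after rescaling (limma adjusted p = 0.00521, range over 16 alternatives 3.37e-04 to 0.429). Rescaling took the log2 changes of Gsk3b to 0.33 (0.58 as deposited), of Rnf123 to 0.20 (0.44 as deposited) and of Rbx1 to -0.69 (-0.44 as deposited), all still called.

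Of 21 tested genes of the list of p53 and its targets, 12 rose and 6 fell (after rescaling, 7 and 10), and the median log2 fold change was 0.19. Trp53 had 133.6 and 138.9 TPM in Tet2 KO, compared with 114.4 and 117.8 TPM in WT (log2 fold change 0.23, limma adjusted p = 3.22e-04), and after rescaling it was -0.022 (limma adjusted p = 0.631, range over 16 alternatives 1.22e-04 to 0.71). Bbc3, which encodes the death protein PUMA, averaged 33.4 ± 1.28 TPM in Tet2 KO and 11.3 ± 0.842 TPM in WT (limma adjusted p = 1.95e-11). Perp, which encodes a membrane protein of cell junctions, averaged 354 ± 28.4 TPM in Tet2 KO and 156.3 ± 6.82 TPM in WT (limma adjusted p = 3.59e-09). Sesn2, which the amino acid stress response also induces, averaged 59.9 ± 5.75 TPM in Tet2 KO and 30.9 ± 1.55 TPM in WT (limma adjusted p = 1.41e-08). Trp53inp1, a stress-induced p53 cofactor gene, rose 1.9-fold in mean TPM (limma adjusted p = 5.57e-06). Mdm2 and Bax, picked after their values were seen, changed less. Mdm2, the p53 antagonist, had 112.8 and 111.6 TPM in Tet2 KO and 102.5 and 103.5 TPM in WT, which was higher on the deposited scale and lower after rescaling (limma adjusted p = 0.025 and 0.0215; over 16 alternatives, 0.00784 to 0.795). Bax, a death effector, had 165.96 and 168.03 TPM in Tet2 KO and 166.4 and 167.3 TPM in WT, overlapping groups. After rescaling, Bax was lower, at -0.25 on the log2 scale (limma adjusted p = 4.48e-04, range over 16 alternatives 1.94e-06 to 0.991).

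Of 19 tested genes that regulate the transcription of D cyclins or inhibitors, 17 rose and 0 fell in limma, with a median log2 fold change of 0.83. After rescaling, 15 rose and 2 fell, with a median of 0.58. The 2 genes not called as higher, Zbtb17 and Id1, had log2 changes of 0.047 and 0.030 on the deposited scale, so 0 fell at an unadjusted p under 0.05 either, and both were lower after rescaling. Smad3, a mediator of TGF-beta signals, had 5.17 and 6.24 TPM in Tet2 KO, compared with 0.47 and 0.42 TPM in WT (limma adjusted p = 1.23e-10). Cbx7, a polycomb gene known to repress the Cdkn2a locus, averaged 9.14 ± 0.644 TPM in Tet2 KO and 3.06 ± 0.297 TPM in WT (limma adjusted p = 6.52e-09). Stat5a, a transducer of IL-3 signals, averaged 54.6 ± 2.1 TPM in Tet2 KO and 24.2 ± 0.0141 TPM in WT (limma adjusted p = 4.49e-11). Its close relative Stat5b averaged 79.8 ± 4.46 TPM in Tet2 KO and 33.8 ± 0.566 TPM in WT (limma adjusted p = 1.61e-11). The list holds activators and repressors, so its count gives no direction for the members.

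S phase and mitosis genes, many of them E2F targets, moved both ways. Falls outnumbered rises among the mitosis genes on both scales, and among the S phase genes after rescaling only. Of all genes tested, 54.4% were called higher and 19.5% lower as deposited, and 32.7% and 34.8% after rescaling. Of 22 S phase genes, 7 rose and 5 fell (after rescaling, 4 and 13), with a median log2 fold change of 0.080 on the deposited scale. Tk1, the thymidine kinase gene, averaged 13.3 ± 1.58 TPM in Tet2 KO and 26.6 ± 1.9 TPM in WT (limma adjusted p = 1.16e-07). Rrm2, the ribonucleotide reductase subunit, averaged 61.6 ± 1.004 TPM in Tet2 KO and 103.7 ± 0.311 TPM in WT (limma adjusted p = 1.18e-09). Fen1, a flap endonuclease gene, averaged 32.7 ± 0.0636 TPM in Tet2 KO and 59.7 ± 1.27 TPM in WT (limma adjusted p = 9.27e-10). Pola1, which encodes the catalytic subunit of DNA polymerase alpha, went the other way, at 19.9 ± 1.07 TPM in Tet2 KO and 11.4 ± 0.672 TPM in WT (limma adjusted p = 1.81e-07).

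Of 22 mitosis genes, 11 fell and 6 rose (after rescaling, 16 and 3), with a median log2 fold change of -0.12 on the deposited scale. Plk1, a mitotic kinase gene, averaged 38.97 ± 0.354 TPM in Tet2 KO and 63.5 ± 2.89 TPM in WT (limma adjusted p = 1.42e-08). Mybl2, a transcription factor of the late cell cycle, averaged 30.6 ± 0.368 TPM in Tet2 KO and 50.1 ± 0.269 TPM in WT (limma adjusted p = 1.28e-08). Kif11 and Cenpf rose 1.48-fold and 1.47-fold in mean TPM (limma adjusted p = 1.24e-07 and 1.21e-05). Their log2 changes were 0.55 and 0.52, and 0.30 and 0.29 after rescaling. The part of such differences in the changes of the D cyclins and inhibitors was not tested.

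**Figure D5:**
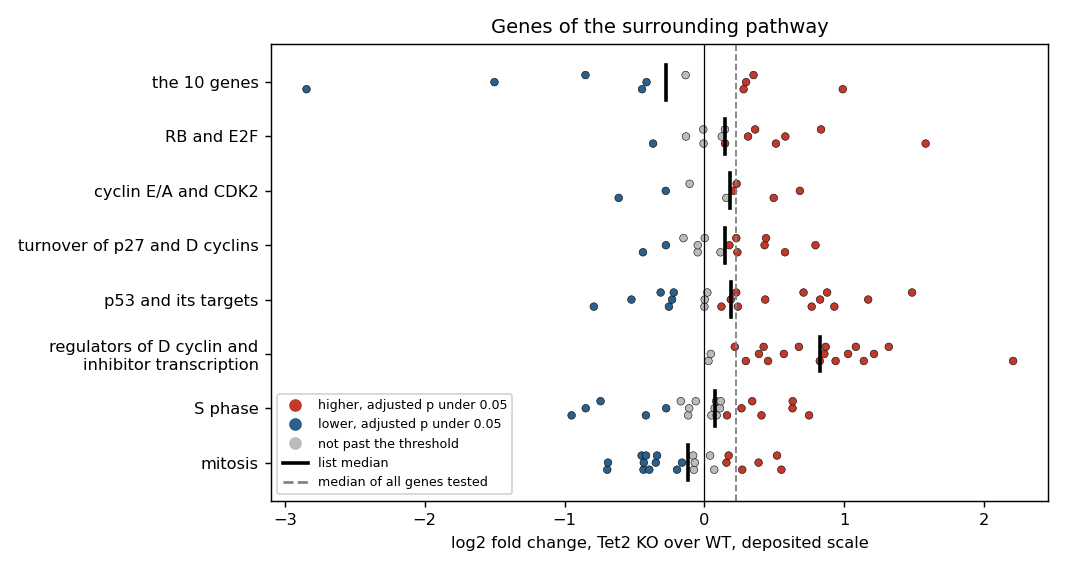
Log2 fold change, Tet2 KO over WT, of every tested gene of the 10 and of the larger lists on the deposited scale, coloured by limma adjusted p under 0.05, with the list median as a black bar and the median of all genes tested (0.23) as a dashed line. Of the lists drawn, the regulators lie furthest to the right (median 0.83), and the 10 genes (median -0.27) and mitosis (-0.12) lie left of 0.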

How the data were processed

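RNA was sequenced from 2 Tet2 KO and 2 WT libraries, which, per the labels' protocols, were made with a stranded mRNA kit from RNA extracted with QIAzol. The authors deposited TPM for 24589 rows, 92 of them ERCC spike-ins and 27 with date-like names. STAR, RSEM and the mm10 build are named in the submitters' processing notes; their versions, the annotation and the strand setting were not given in the sources used here. TPM are shares of a fixed total and keep no depth, so no count, interval of counting or detection limit was computed.

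Tet2 KO was compared with WT by limma 3.58.1 (R 4.3.3, statmod 1.5.0) on log2(TPM + 1), with trend and robust estimation, for the 11452 genes that reached 1 TPM in 2 or more libraries, spike-ins left out. Two-sided p-values were adjusted over all of these by Benjamini-Hochberg, and the threshold was 0.05. The added pseudocount makes fold changes of low genes look smaller than they are on log2(TPM + 1). Values called after rescaling come from the same fit with median-ratio scaling. Shares were compared by exact permutation over libraries (scipy 1.17.1).

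The members and lists were chosen with earlier results of these data known. Named genes are the 10 members, Tet2, Rb1, Trp53, Cdkn2d, Cdkn1c, Cdk2 and Ccne1, and up to 4 called genes per list of largest change whose higher group averaged 5 TPM or more. Other genes were named after their values were seen. Alternatives were other pseudocounts, filters, scalings and limma settings, a replicate block and leaving out each library; median-ratio scaling with the block was added after seeing the data. Positions are from GENCODE M21 on GRCm38 (mm10). Promoter windows are from RefSeq on GRCm38.p6. Python 3.11.15 and matplotlib 3.10.9 made the figures.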

Additional observations from a re-analysis of the deposited data

How the results depend on the processing

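The scale of the libraries was the choice that moved most counts. The 6225 genes higher and 2238 lower in Tet2 KO became 3743 and 3982 with median-ratio scaling, 3915 and 3741 with quantile normalization, 3394 and 4323 with spike-in scaling, and 3605 and 3874 with median-ratio scaling and the replicate block. Of the 4 members called higher, 2 stayed called with median-ratio scaling, 1 with spike-in scaling and 1 with median-ratio scaling and the block. Over the further lists, 61 genes higher became 40, 35 and 38 under those 3 settings, and 28 lower became 57, 60 and 55, with 47 lower after quantile normalization. Directions turned under the same settings. Under spike-in scaling the log2 fold change of Cdkn1a was -0.014, that of Trp53 -0.065 and that of Cdk2 -0.060. With median-ratio scaling, with and without the block, Trp53 was at -0.022 and Cdk2 at -0.017. Tet2 was at -0.23 with median-ratio scaling (with and without the block), -0.25 with quantile normalization, -0.27 with spike-in scaling and between -0.0012 and 0.028 when single libraries were left out, the first without WT replicate 1. The cause was not tested.

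The shared replicate numbers do not show that libraries were paired: across 11452 genes, the deviations of same-numbered libraries correlated at -0.0561. The replicate block gave 6179 genes higher and 2211 lower, with 4 and 5 members, and changed no member's call on the deposited scale. Leaving out each library changed no member's call or direction. Depth is unknown for these values, so low genes such as Cdkn2c and Cdkn1c carry an uncertainty that is not measured.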

Other observations

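Beyond the genes named by rule, several regulators of the D cyclin and inhibitor genes had higher RNA in Tet2 KO cells, and these were picked after their values were seen. Foxo3, a forkhead factor that activates Cdkn1b, averaged 54.5 ± 3.47 TPM in Tet2 KO and 25.2 ± 1.13 TPM in WT (SD, n = 2 each). Foxo1 averaged 8.53 ± 0.467 TPM in Tet2 KO and 3.97 ± 0.00707 TPM in WT. Myc, which encodes a factor that binds E-box letters, averaged 165.8 ± 2.77 TPM in Tet2 KO and 103.3 ± 0.304 TPM in WT. The polycomb genes Bmi1 and Ezh2, known to repress the Cdkn2a locus, averaged 20.5 ± 2.75 and 36.3 ± 0.346 TPM in Tet2 KO; their WT means were 13.5 ± 0.417 and 26.8 ± 0.502 TPM. Ets2, known from human cells to activate CDKN2A, averaged 46.4 ± 1.12 TPM in Tet2 KO and 22.2 ± 0.163 TPM in WT. All 6 were called higher as deposited and after rescaling, where Bmi1 and Ezh2 stood at 0.33 and 0.18 on the log2 scale. Over the 16 alternatives the largest limma adjusted p of Ezh2 was 0.0787, so its call did not hold under all of them. Their part in the changes of the members was not tested.

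Among p53 targets outside the named ones, Pmaip1, which encodes NOXA, averaged 196.3 ± 6.46 TPM in Tet2 KO and 110.1 ± 2.96 TPM in WT, and Btg2, an antiproliferative gene, 57.7 ± 2.07 TPM in Tet2 KO and 33.4 ± 0.0141 TPM in WT. Plk2 went the other way, at 11.3 ± 0.679 TPM in Tet2 KO and 20.2 ± 1.51 TPM in WT, as did Rps27l, at 275.3 ± 8.95 TPM in Tet2 KO and 395.4 ± 3.56 TPM in WT.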
